A study of Mus musculus with 8 samples.

Results

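Macrophages show T cells a mix of stimulating and restraining surface signals, and 8 genes of that mix were followed here in alveolar macrophages of tumor-bearing mouse lungs. They were taken by symbol as Cd274, Cd80, Cd86, Cd40, Vsir, Havcr2, Lgals9 and Lilrb4a. All 8 were found among the 12701 genes of the deposited table. Alveolar macrophages are the resident macrophages of the lung airspaces. They had been sorted by flow cytometry from C57BL/6 mice, 20000 cells per sample, and 1 ng of RNA went into a SMART-Seq v4 cDNA preparation. The tumor-bearing mice had received KP cells, a mouse lung tumor line, by tail vein injection, and the naive mice had no tumor. The 3 groups were naive (3 libraries), day 15 of tumor growth (d15, 2 libraries) and day 35 (d35, 3 libraries). The labels give strain and tumor only, with no sex, age or genotype for the mice. The growth protocol allows KP or KP-GFP cells and sets harvest between days 15 and 30, which conflicts with d35, so the true later day is unknown here. Nothing in the labels ties a library to its own animal. The p-values below therefore reflect only how far these libraries spread, and that spread may be technical.

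As background, T cells need a second signal beside antigen, and the B7 proteins CD80 and CD86 give it through CD28, while CTLA-4 competes for the same ligands and restrains the cell. PD-L1, the product of Cd274, binds PD-1 on T cells and dampens their response, and it is inducible by interferon. CD40 receives the CD40 ligand signal from helper T cells and licenses antigen-presenting cells. VISTA (Vsir) is an inhibitory B7 relative common on myeloid cells, TIM-3 (Havcr2) is an inhibitory receptor with galectin-9 (Lgals9) among its ligands, and Lilrb4a encodes gp49B, an inhibitory receptor that signals through phosphatases. Alveolar macrophages are known as poor stimulators of T cells in the healthy lung.

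The promoter sequences of 2 members are shown because these genes fell or rose in the comparisons that follow and are both known as interferon-responsive. Promoters came from RefSeq (build GRCm38.p6), which held an entry for 5 of the 8 members, namely Cd274, Cd80, Havcr2, Lgals9 and Vsir. Each runs from 250 bases before to 50 bases after the start RefSeq gives, 5′ to 3′ on the gene's own strand. That start can differ from the GENCODE start given with each gene below, most for Cd80, whose window (38458683 to 38458982 on chromosome 16) lies inside the GENCODE gene. Capitals mark matches to the interferon regulatory factor (IRF) motif. The Cd274 promoter lies on the plus strand at chr19:29367188-29367487 and the Lgals9 promoter on the minus strand at chr11:78984875-78985174.
Cd274: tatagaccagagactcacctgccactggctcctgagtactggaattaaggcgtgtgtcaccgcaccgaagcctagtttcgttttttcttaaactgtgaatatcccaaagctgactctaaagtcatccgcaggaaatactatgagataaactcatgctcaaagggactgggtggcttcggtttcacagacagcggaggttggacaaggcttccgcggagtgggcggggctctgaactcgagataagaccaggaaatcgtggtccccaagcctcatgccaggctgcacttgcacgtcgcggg
Lgals9: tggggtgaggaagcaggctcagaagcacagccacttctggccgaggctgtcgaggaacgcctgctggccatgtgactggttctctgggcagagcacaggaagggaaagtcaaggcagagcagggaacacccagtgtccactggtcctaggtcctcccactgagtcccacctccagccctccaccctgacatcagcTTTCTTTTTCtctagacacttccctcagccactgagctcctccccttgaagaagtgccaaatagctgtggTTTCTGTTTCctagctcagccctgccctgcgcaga
The IRF motif was searched as GAAANNGAAA on both strands, and 3.44% of 32851 mouse promoters of this length held it. Lgals9 had 2 matches, which begin at positions -55 and 16 relative to the gene's start, and the other 4 promoters had none. The gamma-activated site, searched as TTCNNNGAA, the E-box CACGTG and the NF-kappaB motif were present in 8.30%, 7.15% and 8.46% of promoters and in none of these 5. A match describes letters in a window and is not a binding site.

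The libraries held 27465745 to 39572173 recovered reads, and values are given as scaled CPM, the authors' reads per gene over a scaled library size. All 12 alveolar macrophage markers had a value, with Siglecf at 557 to 750 and Itgax at 744 to 969 scaled CPM over the 8 libraries. Endothelial markers (13 genes, summed) ran from 287 to 376 in naive, 199 to 248 at d15 and 177 to 231 at d35. Dendritic cell markers summed to 2691 to 2849, 2026 to 2358 and 2385 to 2605 in the same order, nearly all from Sirpa, which macrophages also express, while Flt3 and Xcr1 stayed at or under 1.08. B cell markers summed to 146 to 159, 123 to 139 and 140 to 156. Monocyte or interstitial macrophage markers (14 genes) summed to 1834 to 2090, 2065 to 2211 and 2065 to 2587, with 7 of the 14 called higher at d35 than in naive. The keratins Krt8, Krt7 and Krt18 rose at d35, for Krt8 from 0.262 ± 0.125 to 15.0 ± 4.43 (SD, n = 3 in each group). In the epithelial or tumor list of 10 tested genes, 4 rose at d35 (these 3 and Muc1) and 1 fell (Epcam, from 201 to 120 scaled CPM), while Sftpc and Krt19 had log2 fold changes of -0.67 and -0.23 that were not called. Summed epithelial markers ran from 1405 to 1443, 1234 to 1354 and 1237 to 1340 in the 3 groups, T or NK cell markers from 375 to 409, 408 to 414 and 394 to 436, neutrophil markers from 68.8 to 86.8, 64.2 to 83.3 and 49.6 to 94.1, and fibroblast markers from 17.5 to 48.0, 14.6 to 18.5 and 10.8 to 21.8. Most of the T or NK cell sum was Cd2 (358 to 418), while Il7r rose at d35 from 1.13 to 15.6. In the neutrophil list Csf3r alone ran from 37.9 to 77.5. There Cxcr2 was called higher between d15 and d35 (from 3.63 to 11.4), and S100a9 averaged 0.147 in naive and 2.79 at d35. Of 7 fibroblast markers tested, 0 rose and 1 fell at d15 (Col3a1, from 8.49 to 1.76). At d35 against naive 0 rose and 2 fell (Col3a1 and Inmt). The part of these cells in the results was not tested. In bulk RNA, fewer cells of a type and less RNA per cell cannot be told apart.

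Each gene was tested with limma across 11273 genes on log2(value + 1), and called at an adjusted p (Benjamini-Hochberg) below 0.05. At d15 against naive, 2 of the 8 genes were called, both lower (Cd274 and Lilrb4a), against 4.37% of all genes tested called in either direction, 2.37% higher and 2.00% lower. At d35 against naive, 0 of the 8 were called, against 16.2% of all genes, 9.86% higher and 6.32% lower. In that comparison 3 of the 8 (Cd274, Havcr2 and Lgals9) had an unadjusted limma p below 0.05. At least 16.2% of all genes also passed that threshold, since every called gene does, and their full share is not given here. DESeq2 on the recovered reads called 2 (Cd274 and Lgals9), and edgeR and limma-voom called 0. Between d35 and d15, 3 were called, with Lilrb4a and Lgals9 higher and Havcr2 lower at d35, against 7.39% of all genes, 4.59% higher and 2.80% lower. All 8 were tested, but Cd40 passed the filter on low values only through 2 d35 libraries. It was called in no comparison, so it enters these counts only as 1 of the 8. The comparisons share libraries: both d35 comparisons use the d35 libraries, both comparisons with naive use the naive ones, and both comparisons with d15 rest on the same 2 d15 libraries.

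**Figure D1:**
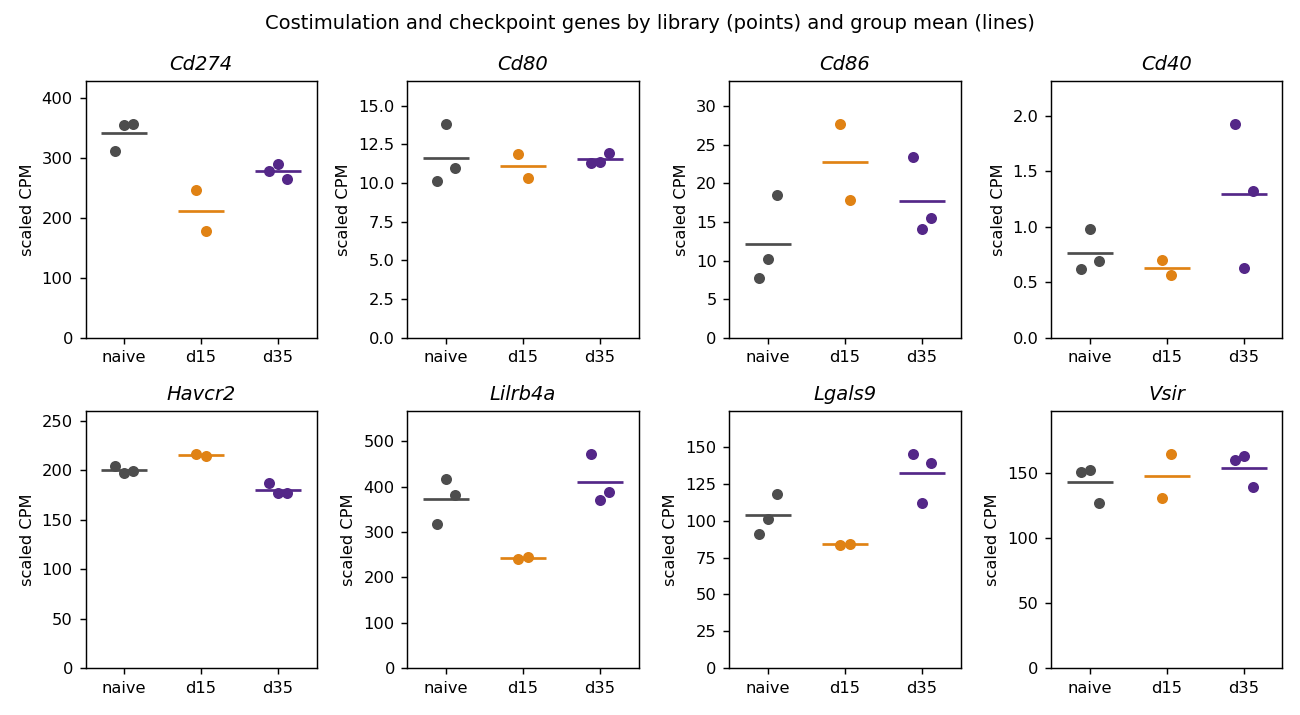
Scaled CPM of each of the 8 genes in every library, with the group mean as a line and 1 panel per gene, each on its own axis. Cd274 sits lowest at d15, Lilrb4a and Lgals9 dip at d15 and stand higher at d35, and Havcr2 is lowest at d35.

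Per kilobase of merged exons, Cd274 had the highest naive level of the 8 (94.3 ± 6.93 scaled CPM per kb, SD, n = 3). Havcr2 (73.7 ± 1.40), Lilrb4a (71.3 ± 9.66), Lgals9 (48.5 ± 6.42) and Vsir (28.7 ± 2.90) came next in that order. Cd86 (3.33 ± 1.53), Cd80 (3.14 ± 0.523) and Cd40 (0.224 ± 0.0552) followed far below. Cd274 exceeded 96.6% of the 12639 genes that had a length, and Cd40 exceeded 13.1%. The neighbours Havcr2 and Lilrb4a, and Cd86 and Cd80, did not differ beyond their spread. The 5 inhibitory genes thus stood well above the 3 costimulatory ones in the naive libraries.

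Cd274 encodes PD-L1 and lies on chromosome 19 at 29367455 to 29388095, plus strand, protein coding, with 7 exons in its longest transcript (GENCODE M21, GRCm38/mm10). The naive libraries held 312, 355 and 357 scaled CPM, the d15 libraries 247 and 178, and the d35 libraries 278, 289 and 266. The 3 groups did not overlap in any comparison, with naive highest, d15 lowest and d35 between. Cd274 fell at d15 from 341 ± 25.1 (SD, n = 3) to 212 ± 48.8 (n = 2), a log2 fold change of -0.70 (SE 0.12, 95% interval -0.97 to -0.43, limma adjusted p = 0.0191). At d35 the mean was 278 ± 12.0, a log2 fold change of -0.29 (interval -0.54 to -0.052) with an adjusted p of 0.0910. From d15 to d35 the log2 fold change was 0.40 (interval 0.13 to 0.68, adjusted p = 0.0748). Without d15 replicate B the d15 value was -0.46 and the call was lost (adjusted p = 0.172). Without naive replicate 2 or 3 it was lost too (0.0860 and 0.0602). A call at d35 was gained in 5 alternatives, among them leaving out d15 replicate A or d15 replicate B (0.0389 for both). Between the times a call was gained with DESeq2 (0.0240) and without d15 replicate A (0.0184). An antisense gene without a row in the table, AC119228.1, overlaps Cd274, and reads of the 2 strands may not have been told apart. Beside the d15 fall, 3 of 13 endothelial markers were called lower at d15, where 2.00% of all genes were. At d35 against naive 8 of the 13 were called lower, where 6.32% of all genes were. Between the times 0 of the 13 were called in either direction. The part of endothelial RNA in the Cd274 values was not tested.

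Pdcd1lg2 encodes PD-L2, the second PD-1 ligand, and lies next to Cd274. It was measured at 8.25, 8.21 and 7.97 in naive, 5.40 and 6.84 at d15, and 11.7, 7.29 and 10.2 at d35. It was lower in both d15 libraries than in any other, but no comparison was called (adjusted p = 0.233, 0.418 and 0.0905 for d15 against naive, d35 against naive and d35 against d15). Cmtm6 encodes a membrane protein that keeps PD-L1 on the cell surface. Its naive values were 225, 226 and 227 scaled CPM, its d15 values 186 and 156, and its d35 values 224, 224 and 233. It fell at d15 by 0.40 on the log2 scale (limma adjusted p = 0.0269), and rose by 0.41 between d15 and d35 (adjusted p = 0.0145). Both calls were lost without d15 replicate B (0.257 and 0.177), and the d15 call also without naive replicate 1, 2 or 3 (0.0580, 0.106 and 0.0715).

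The costimulatory ligands Cd80 and Cd86 lie on chromosome 16, at 38455561 to 38496335 on the plus strand and 36603869 to 36666081 on the minus strand, with 7 and 8 exons. Cd80 was measured at 10.1, 13.8 and 10.9 in naive, 11.9 and 10.3 at d15, and 11.3, 11.4 and 11.9 at d35. These values overlapped in every comparison, and the log2 fold changes were -0.055 (interval -0.38 to 0.27) at d15 and -0.0019 (interval -0.29 to 0.29) at d35 against naive. Their sign depended on which library was left out. Cd86 was measured at 7.78, 10.2 and 18.5 in naive, 27.7 and 17.8 at d15, and 23.4, 14.1 and 15.5 at d35. Its groups overlapped, with the highest naive value above the lowest d15 value. The d15 log2 fold change was 0.90 (SE 0.32, interval 0.20 to 1.60, adjusted p = 0.105) and that of d35 0.55 (interval -0.072 to 1.18, adjusted p = 0.202), so neither was called. The ratio of Cd86 to Cd80 was 0.768, 0.741 and 1.69 in naive, 2.34 and 1.73 at d15, and 2.07, 1.24 and 1.30 at d35. Cd86 varied 3.56-fold over the 8 libraries, and Cd80 1.36-fold. B cells and dendritic cells also carry CD80, CD86 and CD40. Of 8 dendritic cell markers tested, 0 rose and 1 fell at d15 (Clec9a, from 3.17 to 1.06), 1 rose and 0 fell at d35 (Ccl22, from 10.8 to 18.3), and 2 rose and 0 fell between the times (Clec9a and Ccl22). The d15 log2 fold changes of Cd209a, Batf3 and Zbtb46 were 0.77, 0.27 and 0.16, none of them called. Those of Sirpa, Ccl22, Ccr7 and Fscn1 were -0.35, -0.26, -0.24 and -0.16, likewise not called. The median of the list at d15 was -0.20. The sums of both marker lists are given above. The part of these cells in the values of the 3 genes was not tested.

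Cd40, the receptor for CD40 ligand, lies on chromosome 2 at 165055627 to 165072948, plus strand, with 9 exons. It was close to the limit of detection, with 18 to 55 reads per library. Its values were 0.62, 0.98 and 0.69 scaled CPM in naive, 0.70 and 0.56 at d15, and 1.93, 0.62 and 1.32 at d35. The d35 libraries spread from the lowest level of the naive group to the highest of all. Since Cd40 was tested only because of its d35 values, no test is given.

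Vsir encodes VISTA and lies on chromosome 10 at 60346851 to 60372684, plus strand, with 7 exons. Its naive values were 151, 153 and 127 scaled CPM, its d15 values 131 and 165, and its d35 values 160, 163 and 139. The groups overlapped everywhere, and the 3 log2 fold changes lay between 0.038 and 0.10 with adjusted p of 0.873, 0.536 and 0.808. Vsir lies within Cdh23 on the opposite strand, and strand use in the counting is not given in the sources used here. Cdh23 held 1.11 to 4.35 scaled CPM, far less than Vsir.

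**Figure D2:**
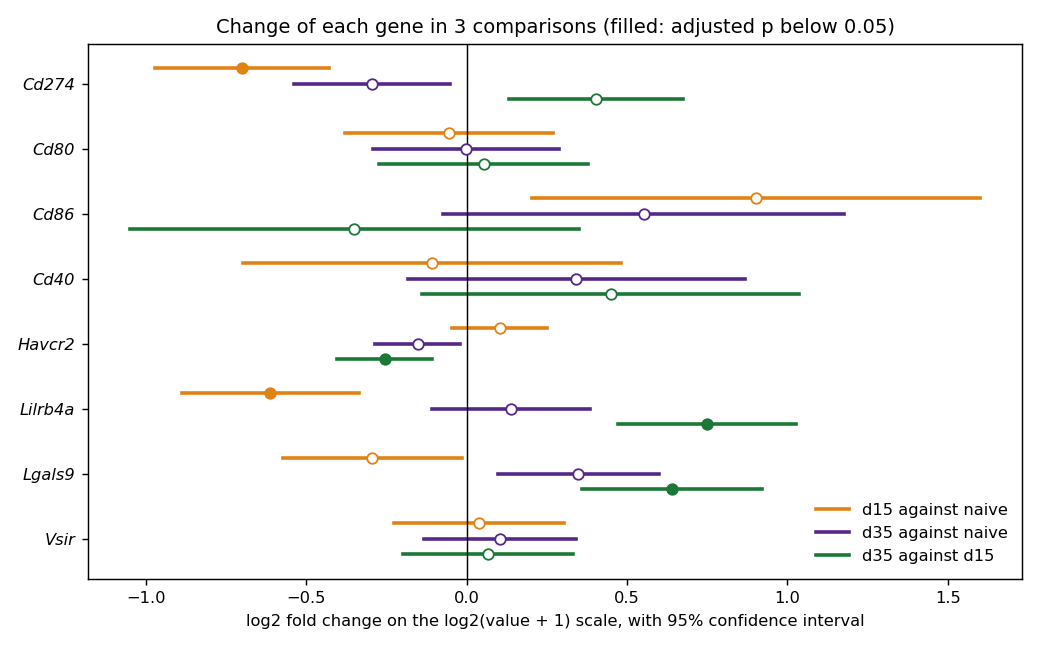
Log2 fold changes of the 8 genes in the 3 comparisons, on the log2(value + 1) scale with 95% intervals from limma, where filled points are called at an adjusted p below 0.05. Cd274 and Lilrb4a are called lower at d15, and Lilrb4a and Lgals9 higher and Havcr2 lower between d35 and d15. Cd40 was tested only because of its d35 values.

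Havcr2 encodes TIM-3 and lies on chromosome 11 at 46454935 to 46481255, plus strand, with 8 exons. It was steady, with values of 205, 197 and 200 in naive, 217 and 214 at d15, and 187, 177 and 177 at d35, a 1.22-fold range over all libraries. The groups did not overlap in any comparison, with d15 highest and d35 lowest. Havcr2 was called between d35 and d15, where it fell from 215 ± 1.75 (SD, n = 2) to 181 ± 5.57 (n = 3), a log2 fold change of -0.25 (SE 0.067, interval -0.40 to -0.11, limma adjusted p = 0.0450). That call was lost in 12 of 18 alternatives, including edgeR (0.0512), limma-voom (0.0549) and every leave-one-out, with a highest adjusted p of 0.224. The d35 value against naive was -0.15 (interval -0.28 to -0.019, adjusted p = 0.108), and that of d15 0.10 (interval -0.045 to 0.25). With the length trend removed, the d35 value against naive was called (0.0167).

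Lgals9 encodes galectin-9 and lies on chromosome 11 at 78962974 to 78984946, minus strand, with 11 exons. It was measured at 91.2, 102 and 118 scaled CPM in naive, 83.9 and 84.0 at d15, and 145, 112 and 139 at d35. Both d15 libraries were below all naive and all d35 libraries, and naive and d35 overlapped. Between d35 and d15 it rose from 84.0 ± 0.0809 (SD, n = 2) to 132 ± 17.8 (n = 3), a log2 fold change of 0.64 (SE 0.13, interval 0.36 to 0.92, limma adjusted p = 0.0138). The d35 value against naive was 0.35 (interval 0.097 to 0.60, adjusted p = 0.0602), and the d15 value -0.29 (interval -0.57 to -0.013, adjusted p = 0.173). Against naive, the d35 call was gained with DESeq2 (0.0295), without naive replicate 3 (0.0454) and without d35 replicate 2 (0.0134). The d35 against d15 call was lost without d15 replicate A (0.0905) or d15 replicate B (0.114). The calls of TIM-3 and its ligand galectin-9 between the times were opposite in direction. Summed monocyte or interstitial macrophage markers reached 2587 at d35 against 2211 at d15, and their part in the Lgals9 rise was not tested.

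Lilrb4a encodes gp49B and lies on chromosome 10 at 51490956 to 51496611, plus strand, with 9 exons. Its neighbour Lilr4b (also known as Gp49a), at 51480632 to 51486703, is a close copy. The longest transcripts were 91.5% identical over 3715 aligned bases, and 39.1% of Lilrb4a's 31-base stretches also occurred in Lilr4b (16.3% of its 75-base stretches). Reads could therefore be split between them, and the counting rule for such reads is not given in the sources used here. Lilrb4a also overlaps Gm49339 on its own strand and the antisense Gm40645, neither of which has a row. Lilrb4a was measured at 318, 418 and 383 in naive, 240 and 244 at d15, and 472, 371 and 388 at d35. Both d15 libraries were below all others. It fell at d15 from 373 ± 50.5 (SD, n = 3) to 242 ± 3.16 (n = 2), a log2 fold change of -0.61 (SE 0.13, interval -0.89 to -0.33, limma adjusted p = 0.0277). Between d15 and d35 it rose to 410 ± 54.2, a log2 fold change of 0.75 (SE 0.13, interval 0.47 to 1.03, adjusted p = 0.00609). Against naive the d35 value was 0.14 (interval -0.11 to 0.39, adjusted p = 0.421).

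Lilr4b was measured at 281, 429 and 426 in naive, 268 and 219 at d15, and 604, 442 and 445 at d35. Its log2 fold changes were -0.62 at d15 (adjusted p = 0.0804), 0.40 at d35 (0.132) and 1.02 between the times (0.0109), a call lost without d15 replicate B (0.129). The ratio of Lilrb4a to Lilr4b was 1.00 ± 0.119 in naive, 1.01 ± 0.155 at d15 and 0.831 ± 0.0461 at d35 (SD). With the 2 genes summed, the d15 value had an adjusted p of 0.0522. The d15 call of Lilrb4a was also lost without naive replicate 2 (0.110), naive replicate 3 (0.0749), d15 replicate A (0.134) and d15 replicate B (0.205). The call between the times was lost without d15 replicate A (0.0536) or d15 replicate B (0.0617).

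**Figure D3:**
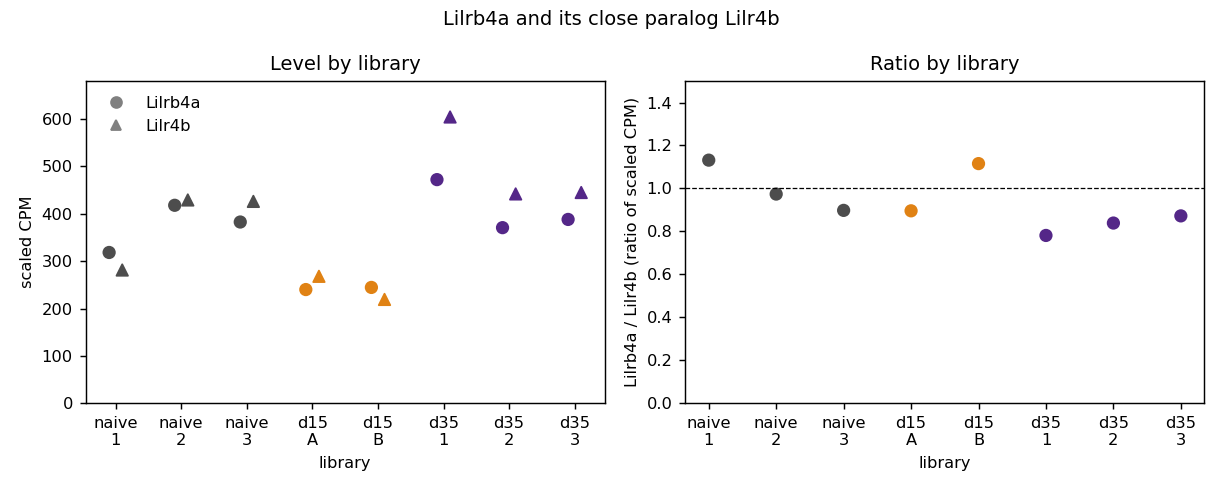
Scaled CPM of Lilrb4a and its neighbour Lilr4b in each library, and the ratio of the 2 in each library. Both are low in the d15 libraries, and the ratio is lowest at d35, with a mean of 0.831.

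Related genes of these pathways were counted from lists chosen with the members. Earlier results of these data were known at that choice, so the shares below are a description only. Of 53 other genes tested, Tnfrsf9 passed the filter on low values only through d35 libraries and Cd27 only through naive ones, and these 2 are left out of the counts. Of the other 51 genes, 2 rose and 3 fell at d15, so 9.80% were called against 4.37% of all genes, with a median log2 fold change of -0.0047 against 0.012. At d35, 12 rose and 0 fell, so 23.5% were called against 16.2%, with a median of 0.11 against -0.0022. Between the times, 8 rose and 3 fell, so 21.6% were called against 7.39%, with a median of 0.22 against -0.0026. At an unadjusted p below 0.05 in limma, 4 of the 51 were lower at d35 than in naive. At least 6.32% of all genes were lower at that threshold, and their full share is not given here. Over all 53, the lower calls at d35 numbered 0 with edgeR and limma-voom and 1 with DESeq2. Over the same comparison the monocyte or interstitial macrophage marker C1qb rose from 1.26 to 99.3 scaled CPM and the keratin Krt8 as given above, and their part in the 12 rises was not tested.

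Among inhibitory ligands and receptors, 6 of 21 were called higher and 0 lower at d35 against naive, none of them one of the 8 genes, where 9.86% of all genes were called higher and 6.32% lower. Fgl2, a secreted inhibitory ligand, rose from 8.11 to 39.5 scaled CPM (log2 fold change 2.10, limma adjusted p = 0.00115). Cd300a, an inhibitory receptor of myeloid cells, rose from 44.8 to 102 (1.15, adjusted p = 0.00332). Ceacam1, which has been described as a TIM-3 partner, rose by 0.81 (adjusted p = 0.00620), Nectin2 by 0.92 (adjusted p = 0.00707), Lgals3, encoding galectin-3, by 0.39 (adjusted p = 0.0161) and Clec12a by 0.51 (adjusted p = 0.0425). Hmgb1, another reported TIM-3 ligand, rose at d15 by 0.36 (adjusted p = 0.0476). Between the times, 6 of the 21 were higher, Lilrb4a and Lgals9 among them, and 2 lower, Havcr2 and Cd47, where 4.59% of all genes were called higher and 2.80% lower. Cd300a and Nectin2 rose by 1.60 and 1.28 (adjusted p = 0.00130 and 0.00275), and Cd200, the ligand of an inhibitory myeloid receptor, by 0.96 (adjusted p = 0.0129).

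The list named for PD-L1 induction and stability held 12 genes, and a place in it does not show an action on PD-L1. Of these 12, 5 were called higher and 0 lower at d35, beside the same 9.86% and 6.32% of all genes. They were Irf1, an interferon-induced transcription factor (from 58.3 to 98.4 scaled CPM, log2 fold change 0.73, limma adjusted p = 0.00569), the interferon-gamma receptor chain Ifngr2 (0.39, adjusted p = 0.0137), Ciita (0.91, adjusted p = 0.0151), the feedback inhibitor Socs1 (1.24, adjusted p = 0.0216) and Cmtm4 (0.84, adjusted p = 0.0285). Cd274 was lower in all 3 d35 libraries than in all 3 naive libraries while these genes were higher. At d15, Ifngr1, the other receptor chain, rose from 339 ± 24.9 to 559 ± 125 (0.70, adjusted p = 0.0191), and it fell by 0.58 between the times (adjusted p = 0.0193). Stat3 rose by 0.26 between the times (adjusted p = 0.0489).

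In the B7 list, Cd276 (B7-H3) rose between the times from 3.69 to 10.0 scaled CPM (log2 fold change 1.23, limma adjusted p = 0.0314). Tnfrsf9 (4-1BB) averaged 0.151 in naive and 2.36 at d35, and since it was tested only because of its d35 values no test is given. In the CD40 pathway, Traf5 rose at d35 by 0.49 (adjusted p = 0.0239), Nfkb2, a subunit of the non-canonical NF-kappaB pathway, fell at d15 from 82.7 to 58.6 (-0.49, adjusted p = 0.0413) and rose by 0.48 between the times (adjusted p = 0.0306), and Birc2 fell by 0.42 between the times (adjusted p = 0.0192). Ptpn6, the phosphatase SHP-1 that inhibitory receptors recruit, fell at d15 from 591 to 455 (-0.38, adjusted p = 0.0476). Of the T cell partners, Cd28 held 0.039 to 0.976 scaled CPM, Pdcd1 had 0.012 to 0.510 with 0 reads in 2 libraries, and Ctla4 and Cd40lg had no row.

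**Figure D4:**
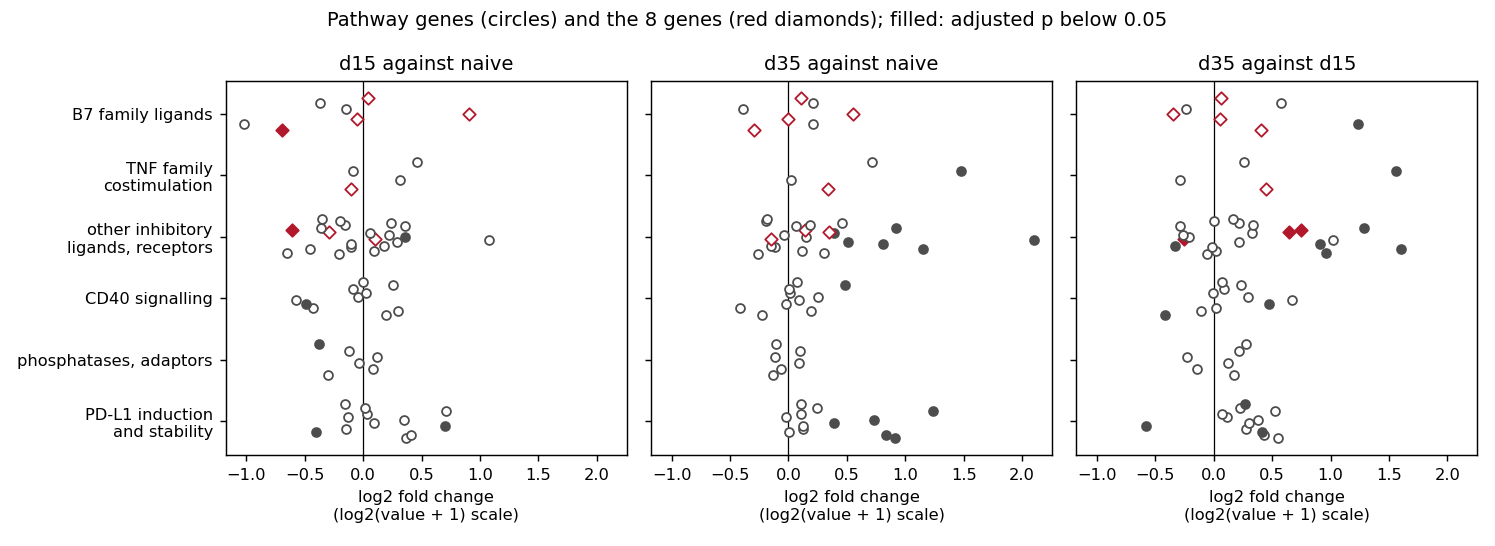
Log2 fold changes of the genes in the pathway lists, by list and comparison, with the 8 genes as red diamonds and the others as circles, filled where called. At d35 against naive the called genes lie above 0 and none of the 8 is filled, and the filled TNF family circle is Tnfrsf9, which was tested only because of its d35 values.

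Of the pathway calls among these 51 genes, 0 of 5 at d15 and 5 of 12 at d35 (Nectin2, Ceacam1, Cd300a, Fgl2 and Irf1) held in every alternative. Between the times, 2 of 11 held in every alternative, Nectin2 and Cd300a. Over all 3 comparisons, leaving out 1 library lost from 3 of these calls (d35 replicate 2) to 15 (d15 replicate B). Without d15 replicate B all 5 calls at d15 were lost, with adjusted p of 0.182 for Ifngr1, 0.257 for Cmtm6, 0.268 for Hmgb1, 0.307 for Nfkb2 and 0.337 for Ptpn6. At d35 the calls of Clec12a, Cmtm4, Socs1, Traf5 and Lgals3 were lost without naive replicate 1 (0.131, 0.0905, 0.0727, 0.0805 and 0.0526), and those of Ciita and Ifngr2 without naive replicate 2 (0.0562 and 0.0600). Between the times, Birc2, Cd200, Cd276, Cd47, Ceacam1, Cmtm6, Ifngr1, Nfkb2 and Stat3 lost their calls without d15 replicate B, at adjusted p of 0.0529 (Ceacam1) to 0.331 (Cd47).

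By Pearson correlation over the 8 libraries, the gene most like Lilrb4a was Tbc1d1 (r = 0.996), followed by Mapkapk2 (0.971). Those for Cd274 were Hnrnpu (0.982) and Slc39a14 (0.976), for Lgals9 Tgif1 (0.975) and Hacd4 (0.964), and for Havcr2 Zfp599 (0.971) and Tdp2 (0.971). Those for Cd86 were Samm50 (0.974) and Gmps (0.972), and for Cd40 Gipc1 (0.960). Those for Vsir were Agpat4 (0.941) and Ocel1 (0.905), and for Cd80 Tango2 (0.926) and Rufy3 (0.896). Each was among the 2 highest of 8798 genes compared, and libraries of 1 group share their condition, so r is a description. Among the 8 genes, Lilrb4a and Lgals9 ran together (r = 0.855), and Havcr2 ran against both Lgals9 (-0.824) and Lilrb4a (-0.755).

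The authors' deposited table compares d15 with naive for 10778 genes. It holds 7 of the 8 genes. In the authors' deposited table Cd274 has a log2 fold change of -0.70 with an FDR of 3.79e-05, and Lilrb4a -0.64 with an FDR of 0.000101. In the same authors' deposited table Cd86 has 0.88 with an FDR of 0.110 and Lgals9 -0.32 with an FDR of 0.229.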

How the data were processed

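RNA was sequenced from 8 libraries of sorted alveolar macrophages, 3 naive, 2 d15 and 3 d35. The submitters' processing notes name STAR 2.5, mm10 and edgeR. For counting, the program, annotation and strand setting are not given in the sources used. The deposited table holds a scaled signal that the authors made from reads; 100% of its 101608 values gave whole reads within 0.001 under (reads + 0.5)/(scaled library size + 1), scaled as CPM. No gene had fewer than 41 reads in all, so low genes had been removed. The authors' deposited comparison of d15 with naive has log2 fold changes, log2 mean levels, a score named LR, and p-values with FDR. The d15 columns carry numbers other than the titles, so they were assigned to the group only, as replicates A and B.

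limma 3.58.1 (R 4.3.3) was fitted with an intensity trend on log2(value + 1) over all 8 libraries with group as the only term, for genes at 1 or more in at least 2 libraries. The log2(value + 1) scale understates the change of low genes. edgeR 4.0.16 and DESeq2 1.42.0 on the recovered reads, limma-voom, other scalings, filters and pseudocounts, and leaving out each library were alternatives. The summed Lilrb4a and Lilr4b, and the same alternatives for named pathway genes, were added after seeing the data. The limma step was also run on simulated counts with known changes. Their spread was set in advance, so that run does not bear on whether the calls above are right. The members and gene lists were chosen with earlier results of these data known. Named genes were the 8 members, list genes called at 0.05 (at most 6 per list and comparison) and fixed partners of the members. Some items under the rule are not reported here. Cd47, outside that rule, was named after its values were seen. Levels across genes are per kilobase of a gene's exons, merged over all its transcripts (GENCODE M21). For Lilrb4a the merged exons hold 5227 bases, while its longest transcript holds 3769.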

Additional observations from a re-analysis of the deposited data

Results flagged for a closer look

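Lilrb4a, Lgals9 and Havcr2 each differed between d35 and d15 by a test of the difference itself. Lilrb4a was higher at d35 than at d15 by a log2 fold change of 0.75, with both d15 libraries (240 and 244 scaled CPM) below all 3 d35 libraries. Lgals9 was higher by 0.64, with d15 at 83.9 and 84.0 and d35 at 112 to 145. The calls of Lilrb4a and Lgals9 were each lost when d15 replicate A or d15 replicate B was left out. Havcr2 had a log2 fold change of -0.25, a small difference whose call depended on the method and on every library.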

How the results depend on the processing

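Depth did not limit the abundant genes, but Cd40 (18 to 55 reads a library) is limited by counting. The calls rest on 2 d15 libraries. At d15, the count of the 8 genes called was 0 to 2 with 1 library left out. At d35 it was 2 with DESeq2, 1 with the length trend removed, 1 with only the 2 groups, 1 with the replicate block, and 0 to 1 with 1 library left out. Between the times it was 0 to 2 with 1 library left out. Over all genes, 493 were called at d15, against 1451 with DESeq2, 1179 with only the 2 groups and 11 to 1084 with 1 library left out. At d35 1824 were called, against 2412 with DESeq2 and 628 to 2288 with 1 library left out, and between the times 833, against 549 with a mean log2 of at least 3, 1368 with DESeq2, 421 with only the 2 groups and 184 to 1046 with 1 library left out. Leaving out 1 library turned the sign of Cd80 at d15 (-0.15 to 0.066), at d35 (-0.087 to 0.12) and between the times (-0.038 to 0.14), of Vsir at d15 (-0.13 to 0.20) and between the times (-0.10 to 0.23), and of Cmtm6 at d35 (-0.014 to 0.014). Cmtm6 at d35 was -0.0034 with DESeq2 and -0.068 with the length trend removed, and Cd40 at d15 was 0.034 with quantile scaling. None of these was called. Quantile scaling moved the share of d35 calls that were higher from 61.0% to 50.7%, and removing the length trend moved that between the times from 62.1% to 50.8%. The cause of these changes was not tested. The replicate numbers of naive and d35 libraries share only a number: same-number correlations of deviations were -0.0071, -0.046 and 0.15, and not every library correlated best with its own number. With the replicate block, 1460 genes were called at d35, and of the 8 genes Cd274 was called (adjusted p = 0.0457).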
